A study of Mus musculus with 14 samples.

Results

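The step from 7 days to 2 weeks after myocardial infarction (MI) was examined in Tcf21 lineage–traced fibroblasts of the mouse heart. All 3 arrays of infarct fibroblasts taken 7 days after MI were compared with both arrays taken 2 weeks after MI, so 5 of the 14 arrays of the series carry the comparison, and the other 9 (3 uninjured, 3 at 3 days and 3 at 4 weeks) contribute to the estimate of the spread. Every group came from tamoxifen-treated TCF21-MerCreMer;R26GFP mice on a C57BL/6 background. The 4 MI groups had a permanently ligated left coronary artery and gave cells of the infarct area, whereas the uninjured group gave cells of the left ventricle. Because the Tcf21 locus drives the inducible Cre, GFP marks cells in which this gene of resident fibroblasts was active when tamoxifen was given, together with their descendants, and these cells were sorted by flow cytometry. The number of hearts behind an array, and the sex and age of the mice for these arrays, are not given in the sources used here. Replicates are labelled biological. Levels are log2 signals of a gene's probes, so a difference of 1 is a 2-fold change, and levels of different genes are not comparable.

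After an infarct, resident fibroblasts divide and take on a contractile, matrix-secreting state called the myofibroblast, and later leave the cell cycle within the maturing scar. The genes that drive mitosis are transcribed mainly in dividing cells, smooth muscle α-actin and its partners form the contractile fibres, and collagens, crosslinking enzymes and proteases build and remodel the scar. Cartilage and tendon matrix proteins are otherwise known from dense connective tissue.

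Of 19494 named genes, 310 differed between 7 days and 2 weeks (1.59%, limma, Benjamini-Hochberg adjusted p under 0.05): 78 were higher at 2 weeks (0.4%) and 232 were lower (1.19%). The median fold change was 3.48 among the genes that rose and 4.1 among those that fell. The 5 arrays did not overlap between the groups for any of the 310, whereas over all genes 12.6% lay wholly higher and 16.8% wholly lower at 2 weeks. At 2 weeks, 68 of the 232 genes that fell were at or under a background level of 5.89, set by olfactory and vomeronasal receptor genes. Quantile normalization of the arrays gave 129 higher and 226 lower genes. The 5 arrays numbered 1, 1 of each group, shared 481 to 808 identical values per pair, against at most 2 for any other pair. With these arrays as a block, 391 genes were higher (2.01%) and 656 lower (3.37%), among them all 310. With all replicate numbers as a block there were 310 higher and 532 lower genes.

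Leaving out a 2-week array leaves 1 array in that group, so calls can be lost there with no change of size. For the called genes named in the text, the log2 fold change then stayed within 1.5 times that of the fit of all 14 arrays. The count differed between the fits that left out 1 array. It was 63 (10 higher, 53 lower) without 2-week replicate 1, 43 (13 higher, 30 lower) without 2-week replicate 2, 181 (33 higher, 148 lower) without 7-day replicate 3, and 494 (199 higher, 295 lower) without 7-day replicate 1. Without 7-day replicate 2 it was 215, with 34 higher and 181 lower. A set of 29 genes, 6 higher and 23 lower, passed in all 14 alternative fits that left out arrays or changed the block, the scaling, the filter or the variance model. These 6 were Chad, C4b, Gsn, Klf9, Uts2r and Kansl1l. The 23 included Cdk1, Plk1, Ccna2, Pbk, Pclaf, H2bc3, H2ac15, Adam12, Cdh3, Cemip and Tyrobp. The fit with a macrophage covariate given below, in which 0 genes passed, was not among the 14.

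**Figure D1:**
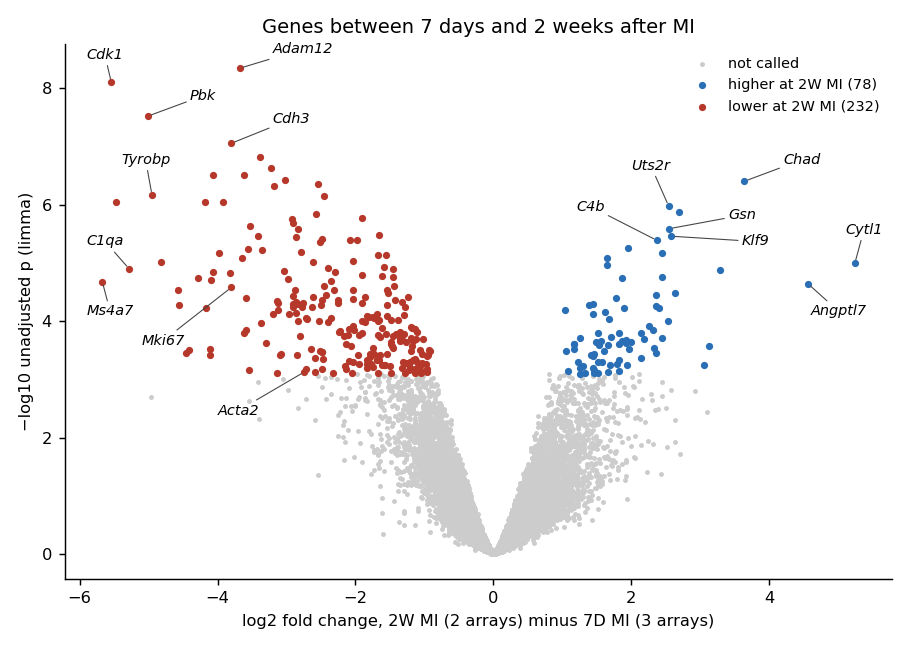
Each point is 1 of 19494 genes, with the log2 fold change from 7 days (3 arrays) to 2 weeks (2 arrays) after MI on the x axis and −log10 of the unadjusted limma p on the y axis. The 78 genes called higher at 2 weeks are blue, the 232 called lower are red, with the steepest fall at −5.67 (Ms4a7) and the steepest rise at 5.24 (Cytl1).

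Macrophage marker genes had the lowest median log2 fold change of all gene lists examined, although the cells were sorted on a fibroblast lineage label. Of 23 measured markers 19 were lower at 2 weeks and none was higher, against 1.19% of all genes lower, and the median log2 fold change was −3.37 against −0.04 over all genes. Their mean level was 10.59, 8.65 and 9.86 on the 7-day arrays and 6.78 and 6.15 on the 2-week arrays, so the groups did not overlap. It lay between 6.04 and 7.45 at 3 days, between 5.42 and 5.73 in uninjured hearts and between 5.46 and 6.01 at 4 weeks. The markers stood highest at 7 days, where none of the 23 group means was at or under background, against 8 at 2 weeks and 15 in uninjured hearts.

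Tyrobp, a signalling adaptor of myeloid cells, had levels of 10.79, 8.73 and 10.19 at 7 days and 5.14 and 4.77 at 2 weeks, a log2 fold change of −4.95 ± 0.57 (SE; adjusted p = 0.000994). Both 2-week arrays were below every 7-day array. Ms4a7, a membrane protein of macrophages, fell from 15.44, 13.28 and 14.99 to 9.41 and 8.39. C1qa, a chain of the first complement component that macrophages make, fell from 13.73, 11.86 and 13.6 to 8.43 and 7.14. Laptm5, Lyz2 (lysozyme) and Csf1r (the receptor for the macrophage growth factor CSF1) fell, with log2 fold changes of −4.82, −4.57 and −4.11. The count of markers called lower was 11 without 2-week replicate 1 and 2 without 2-week replicate 2. Without the latter, Tyrobp was the only one of the 6 genes to pass, the others having adjusted p values of 0.0885 to 0.335. Without 2-week replicate 1, Csf1r missed the threshold (adjusted p = 0.102), as it did with only the 5 arrays of both groups (0.119) and with the Y-linked class defined below as a block (0.16).

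The macrophage marker level therefore separates the same arrays as every change described here. With the mean of the 23 markers as a covariate, 0 genes passed in limma, and 1136 had an unadjusted p under 0.05. The median standard error was then 2.23 times as large. Of the 310 called genes 292 kept their sign, with a median size of 1.01 times that of the fit without the covariate. Endothelial markers had 0 of 15 called, against 1.59% of all genes. Their mean level was 8.21 to 9.15 at 7 days and 9.47 and 7.3 at 2 weeks. None of the neutrophil, lymphocyte, cardiomyocyte, Schwann cell or epicardial markers passed. In that order 2 of 10, 1 of 12, 11 of 17, 3 of 7 and 3 of 11 were above background in either group. Markers at background in both groups could not show a fall. In a bulk sample of sorted cells, fewer cells of a type and less RNA per cell cannot be told apart. The 3 measured Y-linked genes (Eif2s3y, Kdm5d and Uty) had a mean level of 5.8, 3.93 and 5.92 at 7 days and 3.85 and 3.89 at 2 weeks, and with low and high arrays as a block 170 genes passed, 47 higher and 123 lower. The part of macrophage genes, of the arrays numbered 1 and of the Y-linked class in the results was not tested further.

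**Figure D2:**
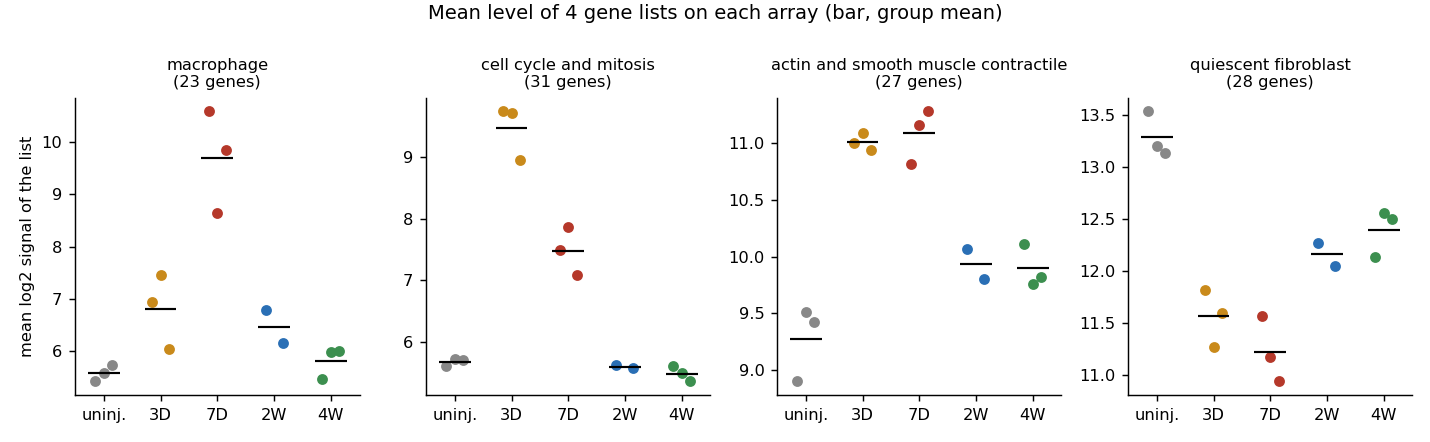
The mean log2 signal (y axis) of the measured members of 4 gene lists is shown for each of the 14 arrays by group (x axis), with the group mean as a bar. Macrophage markers peaked at 7 days. Cell cycle genes were highest at 3 days and were at the uninjured level at 2 weeks, with both levels under the background of 5.89. Contractile genes were lower at 2 weeks than at 7 days, while quiescent fibroblast genes were higher.

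Genes of the cell cycle and mitosis fell together. Of 31 measured, 16 were lower at 2 weeks, against 1.19% of all genes, and none was higher. All 31 fold changes were negative, and the median log2 fold change was −1.66. The mean level of the list was 7.49, 7.86 and 7.08 at 7 days and 5.63 and 5.57 at 2 weeks. It had been 8.96 to 9.74 at 3 days and was 5.61 to 5.72 in uninjured hearts, so the 2-week arrays stood at the uninjured level. Both levels were under the background of 5.89, where a difference between them could go unseen. Cdk1, the kinase that starts mitosis, had levels of 10.41, 10.93 and 9.63 at 7 days and 5.34 and 4.23 at 2 weeks. The 2-week arrays were lower than any 7-day array and under background. The change was −5.54 ± 0.44 (SE, adjusted p = 7.79e-05), or 46.5-fold.

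Plk1, a kinase of spindle assembly, fell from 9.18, 11.12 and 9.44 to 5.82 and 5.88 (log2 fold change −4.07 ± 0.44; adjusted p = 0.000759). Ccna2, the cyclin of S phase and early mitosis, fell from 8.83, 9.04 and 8.34 to 5.38 and 4.85 (−3.62 ± 0.39; adjusted p = 0.000759). Pbk, a mitotic kinase outside the list, fell from 11.36, 11.81 and 10.72 to 6.73 and 5.84 (−5.01 ± 0.45; adjusted p = 0.000197). All 3 were at or near background at 2 weeks, as were Mki67, the proliferation antigen Ki-67, at 5.83 and 5.37 against 10.7, 8.84 and 8.66 at 7 days, and the survival and spindle protein gene Birc5 at 5.57 and 5.86 against 7.39, 8.77 and 8.02. Ube2c, which loads ubiquitin for exit from mitosis, and Hmmr, a hyaluronan-binding spindle protein, fell, with log2 fold changes of −2.72 and −2.02. Top2a, the topoisomerase that untangles chromosomes, had a log2 fold change of −1.66 ± 0.4 that did not pass (adjusted p = 0.0575) and passed with the arrays numbered 1 as a block (0.0296).

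With a 2-week array left out, that group held 1 array, so cell cycle calls could be lost with no change of size. Mki67, Birc5, Ube2c and Hmmr lost the call whichever of the 2-week arrays was left out. Most called members of the list did too. For each of the 8 called genes just named the log2 fold change stayed within 1.5 times that with all arrays. For Cdk1, Plk1, Mki67 and Ube2c it was −6.09, −4.03, −4.03 and −2.64 without 2-week replicate 1. Without replicate 2 it was −4.99, −4.1, −3.57 and −2.8. With only the 5 arrays of both groups 6 list members were called, and Birc5, Ube2c and Hmmr were lost (adjusted p 0.0575 to 0.103). Hmmr was also lost with the Y-linked class as a block (0.0976).

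Promoters of this group were searched because mitotic genes are known to share a cell cycle element, the CHR (TTTGAA), often beside CCAAT boxes (CCAAT). Windows of 250 bases before to 50 after each start were taken from RefSeq (GRCm38.p6) and read on both strands, and a gene counted if any of its windows held the letters. TTTGAA was present in 20 of 27 list members with a window (74.1%), against 17.8% of 15683 named genes, and in 10 of the 13 called members (76.9%). CCAAT was present in 20 of 27 (74.1%) against 42.2%, and in 8 of the 13 called members (61.5%). A match is a description of the sequence and not a mapped site. The first called members in list order that hold the CHR letters before the start were Mki67 and Cdk1. Their bases, 5′ to 3′ on the gene's strand, show every CHR match in capitals. The Mki67 stretch is chr7:135716416-135716535 (minus strand) and the Cdk1 stretch is chr10:69352913-69353032 (minus strand), and each holds 2 copies.
Mki67: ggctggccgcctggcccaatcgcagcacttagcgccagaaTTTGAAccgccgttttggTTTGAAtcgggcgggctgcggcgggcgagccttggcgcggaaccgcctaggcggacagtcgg
Cdk1: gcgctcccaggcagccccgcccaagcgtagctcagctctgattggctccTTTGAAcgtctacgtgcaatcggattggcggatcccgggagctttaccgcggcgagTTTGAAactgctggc

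DNA replication genes moved less. Of 26 measured, 4 were lower, against 1.19% of all genes, and none was higher, with a median log2 fold change of −0.85. With the arrays numbered 1 as a block 8 were lower, against 3.37% of all genes. Pclaf, a PCNA-binding factor of replicating cells, fell from 10.13, 10.68 and 9.68 at 7 days to 6.57 and 7 at 2 weeks (−3.38 ± 0.34; adjusted p = 0.000585). Uhrf1, which copies DNA methylation to new strands, fell from 9.37, 10.21 and 9.63 to 7.28 and 7.36 (−2.42 ± 0.4; adjusted p = 0.00859). The helicase subunits Mcm2 and Mcm5 fell, with log2 fold changes of −1.84 and −2.23. Pcna, the polymerase clamp, overlapped between the groups, with 13.34, 13.71 and 13.53 at 7 days and 14.03 and 13.66 at 2 weeks (0.32 ± 0.25; adjusted p = 0.647).

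Histone genes with symbols starting H1f, H2ac, H2bc, H3c or H4c were gathered after their values were seen. This set holds the replication-dependent histones and some other linker histones. Of 57 genes 21 were lower, against 1.19% of all genes. Of 57 fold changes 54 were negative, and the median was −1.86. H2bc3 fell from 10.88, 12.95 and 10.99 to 5.97 and 6.31 (−5.47 ± 0.65; adjusted p = 0.00104) and H2ac15 from 12.36, 13.92 and 12.01 to 8.72 and 8.46 (−4.18 ± 0.49; adjusted p = 0.00104). Both 2-week arrays were below every 7-day array for each gene. Histone genes are near-identical copies, so their probes may share targets and single members are uncertain. Pclaf, H2bc3 and H2ac15 passed without either 2-week array, whereas Uhrf1, Mcm2 and Mcm5 had adjusted p values of 0.102 to 0.211 without replicate 1 and 0.105 to 0.272 without replicate 2. The list's count was then 2 and 1, and it was 2 without 7-day replicate 3, when Mcm2 and Mcm5 missed the threshold (0.107 and 0.0501). Without 7-day replicate 2, Mcm2 alone missed it (0.109), and with only the 5 arrays of both groups Mcm2 and Mcm5 did (0.0834 to 0.149).

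Of 27 genes of actin and the smooth muscle contractile apparatus 4 were called lower at 2 weeks, against 1.19% of all genes, and none higher. The median log2 fold change was −1.07. With the arrays numbered 1 as a block 14 were lower, against 3.37% of all genes. Acta2, smooth muscle α-actin and the usual mark of myofibroblasts, had levels of 14.56, 15.54 and 15.51 at 7 days and 12.73 and 12.18 at 2 weeks. The groups did not overlap and the change was −2.74 ± 0.63 (SE; adjusted p = 0.0486), or 6.7-fold. Its level had been 15.86 on average at 3 days and was 12.56 at 4 weeks and 10.48 in uninjured hearts. Actg2, the enteric smooth muscle actin, fell from 7.09, 8.78 and 10.03 to 4.73 and 5.3. Tpm2, a tropomyosin that lies along actin filaments, fell from 10.21, 11.48 and 11.86 to 8.11 and 8.6 (−2.83 ± 0.49; adjusted p = 0.00969). Cnn2, a calponin, fell from 9.22, 10.05 and 9.49 to 8.07 and 8.12.

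Tagln (transgelin) was at 15.17, 15.87 and 16.12 at 7 days and 13.62 and 13.29 at 2 weeks, and missed the threshold (adjusted p = 0.0542). It lay wholly lower, as did 16.8% of all genes. With the arrays numbered 1 as a block it passed (0.0176), as did Cnn1, another calponin, whose log2 fold change was −2.59 ± 0.78 (0.122 without the block, 0.0246 with it). Of 10 myofibroblast markers Acta2 was the single call, against 1.19% of all genes lower. With that block 6 were lower, against 3.37% of all genes.

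With 1 array left out, the log2 fold change was −3.07 to −2.47 for Acta2 and −4.39 to −2.92 for Actg2. For Tpm2 it was −3.31 to −2.49 and for Cnn2 −1.68 to −1.26. Each of the 4 contractile calls was lost in some of these fits. None of them passed without 2-week replicate 1 (adjusted p 0.139 to 0.258) or without 2-week replicate 2 (0.0844 to 0.371), and Tpm2 was the only one of the 4 left without 7-day replicate 2 or without 7-day replicate 3. Of the whole list, 0, 0, 1 and 1 genes passed in those 4 fits, and 8 did without 7-day replicate 1. With the Y-linked class as a block Cnn2 was the only one of the 4 to pass, and Acta2, Actg2 and Tpm2 had adjusted p values of 0.0507 to 0.0777. With only the 5 arrays of both groups Acta2 was the only one of the 4 to pass, and Actg2, Tpm2 and Cnn2 had values of 0.0575 to 0.0892.

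CArG boxes, the motif bound by serum response factor at contractile genes, were searched in their strict form (CC, then only A or T, then GG). They were found in the windows of 3 of 23 members (13%) against 1.7% of all named genes, both strands read. Looser forms and sites outside the windows were not searched. Of the 4 called members 3 had a window, and Cnn2 was the only one of these with a match before the start. Its stretch is chr10:79988480-79988599 (plus strand), and the match is in capitals.
Cnn2: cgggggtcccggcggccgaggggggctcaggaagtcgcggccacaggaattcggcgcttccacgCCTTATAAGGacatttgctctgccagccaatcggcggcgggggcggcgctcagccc

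Scar matrix genes held single falls of several kinds. Among 30 matrix proteases and inhibitors 4 were lower, against 1.19% of all genes, and none was higher. Their fold changes were positive for 14, with a median of −0.33. With the arrays numbered 1 as a block 6 were lower and 1 higher, against 3.37% and 2.01% of all genes. Adam12, a membrane metalloprotease of activated mesenchymal cells, had levels of 10.32, 9.59 and 9.8 at 7 days and 6.11 and 6.35 at 2 weeks. Its change of −3.68 ± 0.28 (SE; adjusted p = 7.79e-05) was 12.8-fold, with no overlap. Mmp14, a membrane-bound collagenase, fell from 14.25, 14.15 and 14.38 to 12.85 and 13.06 (−1.3 ± 0.25; adjusted p = 0.0194), and the protease gene Adamts16 fell by 1.68 on the log2 scale. Cemip, which breaks down hyaluronan, fell from 11.13, 11.68 and 12.27 to 8.38 and 7.95 (−3.53 ± 0.45; adjusted p = 0.0019). Cdh3 (P-cadherin), a cell adhesion protein, fell from 11.19, 11.77 and 12.66 to 8.05 and 8.1 (−3.8 ± 0.37; adjusted p = 0.000431). For Cemip and Cdh3, the 2-week arrays were still above all 3 uninjured arrays, whose means were 4.12 and 4.88.

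Among 28 genes that process and crosslink collagen 4 fell and 1 rose, against 1.19% and 0.4% of all genes. With the arrays numbered 1 as a block 8 were lower and 2 higher, against 3.37% and 2.01%. The prolyl hydroxylases P4ha3 and P3h1, the lysyl oxidase relative Loxl3 and the collagen galactosyltransferase Colgalt1 fell, with log2 fold changes of −1.75, −1.33, −1.12 and −0.98. Of 22 collagen genes Col5a2, a chain of the fibril-nucleating collagen V, was the single call, against 1.19% of all genes lower. With that block 3 were lower, against 3.37%. The list had 16 negative fold changes and a median of −0.5. Col5a2 fell from 10.98, 11.01 and 10.68 to 9.52 and 9.36 (−1.45 ± 0.22, adjusted p = 0.00465). Col1a1, the main chain of scar collagen, stood at 17.79, 17.57 and 17.75 at 7 days and 16.99 and 17.19 at 2 weeks, a log2 fold change of −0.62 ± 0.26 (adjusted p = 0.305), which was still above its uninjured mean of 15.41. Col1a2 (−0.78 ± 0.27, adjusted p = 0.202) and Col5a1 (−0.86 ± 0.34, adjusted p = 0.258) did not pass either. For these 3 genes both 2-week arrays were below every 7-day array, as held for 8 of the 22 collagen genes and 16.8% of all genes. Col3a1 (−0.25 ± 0.29; adjusted p = 0.788) and Postn, the matricellular protein periostin (−0.19 ± 0.26; adjusted p = 0.841), overlapped between the groups. Tnc (tenascin C), Cthrc1 and the crosslinking enzyme Lox had log2 fold changes of −1.51, −1.28 and −1.4 with adjusted p values of 0.0798, 0.0574 and 0.218, and 0.0417, 0.00835 and 0.0491 with the arrays numbered 1 as a block.

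Of the 10 called matrix and adhesion genes, Adam12, Cdh3 and Cemip passed in every fit that left out 1 array. Adamts16 and Col5a2 passed in all but the fit without 2-week replicate 2 (adjusted p 0.0645 to 0.279 over the 7 genes lost there). Mmp14, P4ha3, P3h1, Loxl3 and Colgalt1 were lost without either 2-week array (0.165 to 0.343 without replicate 1). P4ha3 and Colgalt1 were also lost without 7-day replicate 1, P3h1, Loxl3 and Colgalt1 without 7-day replicate 2, and Mmp14, P4ha3, P3h1 and Colgalt1 without 7-day replicate 3 (0.0567 to 0.157 over these fits). With only the 5 arrays of both groups these 5 genes and Col5a2 were lost (0.0575 to 0.151), and with the Y-linked class as a block Mmp14, P4ha3, P3h1 and Colgalt1 were (0.0807 to 0.155).

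**Figure D3:**
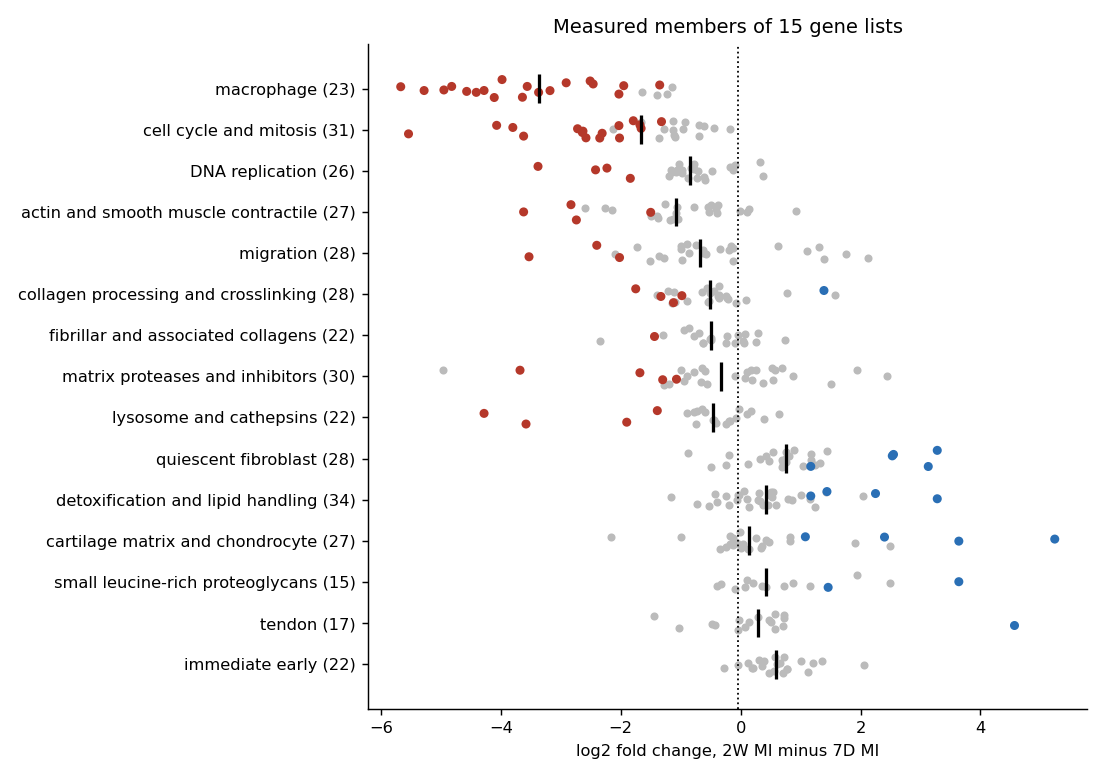
Each point is a measured member of 1 of 15 gene lists (y axis, number measured in parentheses), placed at its log2 fold change from 7 days to 2 weeks (x axis). Blue and red points passed the adjusted limma test as higher or lower, gray points did not, thick bars are list medians and the dotted line is the median of all genes at −0.04.

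Single members of the cartilage and tendon lists held the steepest rises. Of 27 measured cartilage genes 4 rose and none fell, against 0.4% of all genes, although the list's median log2 fold change was 0.14, so the change lay in a few members. Cytl1, a secreted protein of cartilage, had levels of 8.83, 10.24 and 10.04 at 7 days and 14.89 and 15 at 2 weeks. The groups were far apart, and the change of 5.24 ± 0.77 (SE; adjusted p = 0.00404) was 37.8-fold. Chad (chondroadherin), a leucine-rich cartilage protein that binds collagen and integrins, rose from 7.12, 7.45 and 8.07 to 11.1 and 11.27 (3.64 ± 0.4; adjusted p = 0.000772). Cilp2, a cartilage intermediate layer protein, rose from 6.71, 6.46 and 7.56 to 9.25 and 9.37 (2.4 ± 0.42; adjusted p = 0.0101). Chad and Cilp2 were above their uninjured means of 7.9 and 6.26 at 2 weeks and reached 13.88 and 10.19 at 4 weeks. Cytl1 was lower at 7 days than in uninjured hearts, where its arrays were at 12.22, 14.42 and 14.47. Its rise to 14.89 and 15 therefore ended near the higher uninjured arrays.

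Sox6, a transcription factor of chondrocytes, rose by 1.08 on the log2 scale (adjusted p = 0.0478). Its 2-week mean was 7.05, beside an uninjured mean of 6.53. Comp, a cartilage and tendon matrix protein, was at 12.61, 12.77 and 13.33 at 7 days and 14.7 and 14.92 at 2 weeks. It lay wholly higher, as did 12.6% of all genes. Its change of 1.91 ± 0.49 did not pass (adjusted p = 0.0706) and passed with the arrays numbered 1 as a block (0.0252). Acan, the large aggregating proteoglycan of cartilage, went the other way without passing, at 8.77, 9.22 and 12.84 at 7 days and 7.98 and 8.23 at 2 weeks (adjusted p = 0.259). Of 17 tendon genes 1 was called, against 0.4% of all genes higher. The list had 11 positive and 6 negative fold changes and a median of 0.29 on the log2 scale. The called gene was Angptl7, a secreted angiopoietin-like protein. It rose from 11.5, 8.53 and 10.11 to 14.9 and 14.31 (4.56 ± 0.72, adjusted p = 0.00631). Among 15 small leucine-rich proteoglycans and relatives Chad and Optc (opticin) rose, against 0.4% of all genes. With the arrays numbered 1 as a block 4 did, against 2.01%. Optc rose by 1.46 ± 0.34 (adjusted p = 0.0493) to a 2-week mean of 7.26, beside an uninjured mean of 6.82. Fmod (fibromodulin), which regulates collagen fibrils, overlapped between the groups, with levels of 12.81, 11.61 and 13.45 at 7 days and 13.32 and 13.38 at 2 weeks (0.72 ± 0.57; adjusted p = 0.66). None of 17 bone genes passed, against 0.4% of all genes higher and 1.19% lower.

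Chad was the only one of these 6 called genes to pass without each array. Without 2-week replicate 1 the other 5 had adjusted p values of 0.0562 to 0.227 and without 2-week replicate 2 of 0.0665 to 0.402, and 1 cartilage gene passed in each of these fits. Optc was lost without any single 7-day array (0.0771 without replicate 1), and Sox6 and Optc without 7-day replicate 2 (0.17 and 0.101) and without 7-day replicate 3 (0.113 and 0.101). With only the 5 arrays of both groups Angptl7, Sox6 and Optc were lost (0.0527 to 0.157), and Optc was lost with the Y-linked class as a block (0.256).

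**Figure D4:**
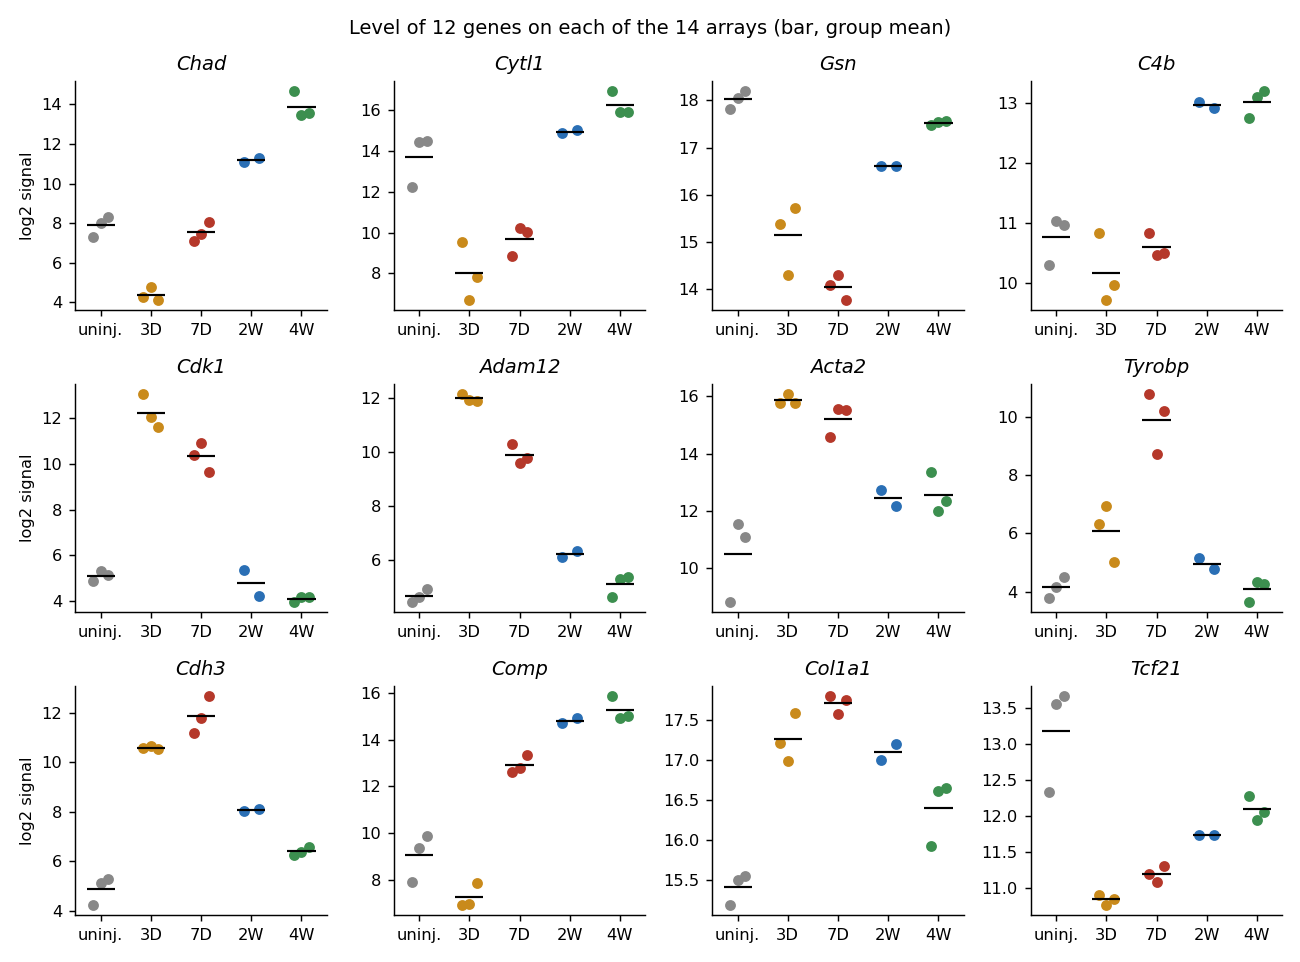
The log2 signal (y axis, scaled per gene) of 12 genes is plotted for each of the 14 arrays by group (x axis), with the group mean as a bar. The 12 genes were chosen with results known, and the 2-week arrays stand apart from the 7-day arrays for all of them. They lie upward for Chad, Cytl1, Gsn, C4b, Comp and Tcf21 and downward for Cdk1, Adam12, Acta2, Tyrobp, Cdh3 and Col1a1. Comp, Col1a1 and Tcf21 did not pass the adjusted test. Over all genes 12.6% lay wholly higher and 16.8% wholly lower at 2 weeks.

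Some genes that mark the fibroblasts of the uninjured heart rose between 7 days and 2 weeks, and the list as a whole stayed below its uninjured level. Of 28 measured quiescent fibroblast genes 5 rose and none fell, against 0.4% of all genes higher and 1.19% lower. Of the fold changes 24 were positive, and the median was 0.76. With the arrays numbered 1 as a block 7 were higher and 1 was lower, against 2.01% and 3.37% of all genes. The mean level of the list was 11.57, 11.17 and 10.94 at 7 days and 12.27 and 12.05 at 2 weeks, against 13.13 to 13.53 in uninjured hearts. Gsn (gelsolin), which severs actin filaments, had levels of 14.08, 14.3 and 13.78 at 7 days and 16.61 on both 2-week arrays, a change of 2.55 ± 0.33 (SE; adjusted p = 0.00197), with an uninjured mean of 18.02. Gsta3, a glutathione transferase, rose from 9.11, 7.76 and 7.26 to 11.38 and 11.26 (3.28 ± 0.49; adjusted p = 0.00474). Vit (vitrin), a matrix protein, rose from 9.2, 8.61 and 6.86 to 11.63 and 11.07, and Ces1d, a carboxylesterase, from 6.26, 5.6 and 6.58 to 8.86 and 8.48. For Gsta3, Vit and Ces1d the 2-week mean stayed below the uninjured mean, which was 14.31, 13.98 and 13.95.

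Detoxification and lipid genes overlap with that list. With the arrays numbered 1 as a block 7 of 34 rose, against 2.01% of all genes. Without the block 4 rose, against 0.4%, and none fell. Besides Gsta3 these were Mgst1 and Gstm1, other glutathione transferases (1.17 and 1.44 on the log2 scale), and Cyp27a1, a mitochondrial sterol hydroxylase, which rose from 8.64, 7.43 and 8.47 to 10.31 and 10.56. C4b, a complement component, rose from 10.83, 10.46 and 10.49 to 13.02 and 12.91 (2.37 ± 0.32; adjusted p = 0.00234). It was the single call among 15 complement genes, against 0.4% of all genes higher. With the block 3 of these genes were higher, against 2.01%. At 2 weeks C4b was above its uninjured mean of 10.77. Pcolce2, which enhances the trimming of procollagen, rose by 1.39 on the log2 scale.

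Gsn and C4b passed without each array. The other 7 of these called genes had adjusted p values of 0.0628 to 0.268 without 2-week replicate 1 and of 0.0669 to 0.287 without 2-week replicate 2, which left 1 quiescent fibroblast gene and 0 detoxification genes each time. Gstm1 was also lost without 7-day replicate 1 (0.0525), Ces1d, Mgst1 and Gstm1 without 7-day replicate 2, and Vit, Mgst1 and Gstm1 without 7-day replicate 3, where 3 quiescent fibroblast genes and 2 detoxification genes were left in each of these last fits. Vit, Mgst1, Gstm1, Cyp27a1 and Pcolce2 were lost with only the 5 arrays of both groups (0.0523 to 0.111), and these 5 except Cyp27a1 with the Y-linked class as a block (0.058 to 0.152).

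Other rises concerned transcription and signalling. Klf9, a zinc finger transcription factor that answers glucocorticoids, rose from 9.4, 8.35 and 9.21 to 11.59 and 11.55 (2.58 ± 0.34; adjusted p = 0.00233). Uts2r, the receptor for the vasoactive peptide urotensin II, was at 5.02, 4.55 and 4.61 at 7 days, under background, and at 7.05 and 7.48 at 2 weeks (2.54 ± 0.3; adjusted p = 0.00114), and it reached a mean of 10.01 at 4 weeks. Kansl1l rose from 10.96, 9.61 and 10.03 to 13.12 and 12.66 (2.69 ± 0.33; adjusted p = 0.00135). None of the 3 genes overlapped between the groups.

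Angpt2, a ligand of the endothelial receptor Tie2, rose from 8.15, 8.56 and 8.13 to 11.09 and 10.39 (2.45 ± 0.38; adjusted p = 0.00542), and the neuropeptide precursor Scg2 rose from 6.1, 5.74 and 7 to 8.91 and 8.54. Their 4-week means of 9.6 and 7.44 were lower than their 2-week means of 10.74 and 8.73. Tgfbr3, the TGF-beta co-receptor betaglycan, rose by 1.92 on the log2 scale. It was the single rise among 26 genes of TGF-beta and activin signalling, against 0.4% of all genes. Adm (adrenomedullin), a vasodilator peptide, rose by 1.56, Faim2, an inhibitor of Fas-driven apoptosis, by 2.19, Aspa, which splits N-acetylaspartate, by 2.64, the arrestin-related gene Arrdc3 by 2.44, and Fam180a by 3.06 on the same scale. Klf9, Uts2r and Kansl1l passed without each array, and Angpt2 and Scg2 in all but the fit without 2-week replicate 1. The 8 genes lost there had adjusted p values of 0.0654 to 0.225, and the 6 lost without 2-week replicate 2 had values of 0.0844 to 0.293. Fam180a was also lost without 7-day replicate 1 (0.059), Fam180a and Tgfbr3 without 7-day replicate 2, and Arrdc3, Tgfbr3 and Faim2 without 7-day replicate 3. Aspa, Arrdc3, Tgfbr3 and Adm were lost with only the 5 arrays of both groups (0.0634 to 0.132), and Arrdc3, Fam180a, Tgfbr3, Adm and Faim2 with the Y-linked class as a block (0.0525 to 0.139).

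Remaining lists held few calls. Of 28 migration genes 3 fell, against 1.19% of all genes: Cemip, Hmmr and Rac2, a GTPase of blood cells. The log2 fold change of Rac2 was −2.4 ± 0.36 (adjusted p = 0.00453), and its call was lost once 2-week replicate 2 was left out. With the arrays numbered 1 as a block 9 migration genes were lower and 2 higher, against 3.37% and 2.01% of all genes. Of 22 lysosomal genes 4 fell, against 1.19% of all genes. The proteases Lgmn (legumain) and Ctsc and the glucuronidase Gusb fell, with log2 fold changes of −1.9, −3.58 and −1.39, and the fourth gene, Ctss, is also in the macrophage list. Of 24 genes of glycolysis and hypoxia the enzymes Pgam1 and Tpi1 fell, with log2 fold changes of −1.33 and −1.17. Adm rose, and over all genes 1.19% were lower and 0.4% higher. Ccn4, a Wnt-induced matricellular protein, was the single call among 38 Wnt genes (−1.84 ± 0.41, adjusted p = 0.0396). The chemokine gene Ccl8 was the single call among 20 chemokines (−2.59 ± 0.6, adjusted p = 0.0489). Sec61b, of the translocon, was the single call among 26 genes of secretion and the unfolded protein response (−1.02 ± 0.2, adjusted p = 0.0222). As 1.19% of all genes were lower, a single call is no result about its list. None of 27 genes of oxidative phosphorylation passed, although all 27 fold changes were negative (median −0.41). None of 22 immediate early genes passed either, with 20 positive (median 0.59). Lgmn, Ctsc, Gusb, Pgam1, Tpi1, Ccn4, Ccl8 and Sec61b were all lost without 2-week replicate 2 (0.112 to 0.336), and all but Lgmn without 2-week replicate 1 (0.102 to 0.407). Ccn4 was lost without 7-day replicate 1 (0.0596), Pgam1, Tpi1, Ccl8 and Sec61b without 7-day replicate 2 (0.0815 to 0.139), and all 8 but Lgmn and Ctsc without 7-day replicate 3 (0.0545 to 0.145). All 8 were lost with only the 5 arrays of both groups (0.054 to 0.164), and Tpi1, Ctsc, Gusb, Ccn4 and Ccl8 with the Y-linked class as a block (0.0612 to 0.253).

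The fibroblast label itself was checked by marker levels, beside 0.4% of all genes higher and 1.19% lower. Of 11 resident fibroblast markers Thy1, a cell surface glycoprotein, was the only one to pass: it fell from 8.72, 8.36 and 8.54 to 7.51 on both 2-week arrays (−1.03 ± 0.23; adjusted p = 0.0387), and it was lost in each fit without 1 array (0.0592 to 0.276), with only the 5 arrays of both groups (0.12) and with the Y-linked class as a block (0.214). Tcf21, the lineage gene, was at 11.19, 11.08 and 11.31 at 7 days and at 11.74 and 11.73 at 2 weeks, which did not pass (0.54 ± 0.32; adjusted p = 0.511), with an uninjured mean of 13.18. Dcn (decorin; adjusted p = 0.409) and Vim (vimentin; adjusted p = 0.477), both abundant in fibroblasts, did not pass. Ddr2, a collagen receptor, was at 13.64, 12.26 and 12.14 at 7 days and 14.34 and 13.82 at 2 weeks (1.4 ± 0.52; adjusted p = 0.225, and 0.0248 with the arrays numbered 1 as a block).

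Arrays outside the step offer a comparison over a longer interval, 4 weeks against 3 days, which shares the variance estimate but no array with it. There 1140 genes were higher (5.85%) and 1337 lower (6.86%) at 4 weeks. Of the 78 genes that rose from 7 days to 2 weeks, 53 (67.9%) were also higher at 4 weeks than at 3 days and 0 were lower, and they make up 4.65% of the 1140. Of the 232 that fell, 140 (60.3%) were also lower and 0 higher, and they make up 10.5% of the 1337. Chad, Cdk1 and Adam12 had log2 fold changes of 9.5, −8.13 and −6.9 there. For the macrophage genes Tyrobp and C1qa the log2 fold changes were −2.01 (adjusted p = 0.0181) and −1.75 (adjusted p = 0.144) there, beside −4.95 and −5.28 from 7 days to 2 weeks, and the difference between the intervals was not tested.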

How the data were processed

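Clariom S Mouse arrays were hybridized with RNA of sorted GFP-positive cells, amplified by a 3' IVT Pico protocol. The authors deposited gene-level log2 signals, for which their processing notes name Affymetrix Expression Console; the summarization algorithm and genome build are not given in the sources used here. No further normalization was applied. Of 28846 rows 6704 are controls, 19527 carry 1 gene symbol and 2615 carry none; for 33 genes with several rows the brightest was kept, which left 19494 genes. The 5 arrays compared had median signals of 6.38 to 6.46, and 10909 to 11306 genes lay above background (the 95th percentile over 1410 receptor genes of smell and pheromones). The number of arrays limits the precision.

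Group means of all 14 arrays were fitted in limma 3.58.1 (R 4.3.3; 9 residual and 4.53 prior degrees of freedom) and the contrast of 2 weeks minus 7 days was moderated by empirical Bayes, with Benjamini-Hochberg adjustment over 19494 genes at 0.05. The fitting code was tested on simulated data. Errors are standard errors of the contrast. Same-numbered arrays of different groups deviated together from their group means (r 0.373 to 0.632 over 10 pairs numbered 1, 0.119 to 0.387 over 10 numbered 2 and 0.174 to 0.488 over 6 numbered 3). Differently numbered pairs had r of −0.55 to 0.432. Of these 52 pairs 16 were over 0.1, all of them joining number 2 with number 3. The deviations thus set number 1 apart and do not tell number 2 from number 3. As every same-numbered pair was over 0.1, the numbers were treated as pairs in a second fit. Alternatives changed the arrays, block, scaling, filter and test. Nothing states that replicates came from separate mice, so p-values measure the spread between these samples.

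Named genes were drawn from the 15 largest rises and 15 largest falls that passed without overlap and above background. They were also drawn from called list members (at most 6 per direction), the first 5 of each list, and genes the study names. Not every gene of this pool is named, and those left out include many first members that did not pass. Clone, olfactory and microRNA symbols were passed over. The comparison, the genes and the lists were chosen with earlier results of these data known. Genes whose rows carry no symbol here were not analysed here.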

Additional observations from a re-analysis of the deposited data

How the results depend on the processing

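The 310 calls became 116 (36 higher, 80 lower) with only the 5 arrays of both groups, 842 (310, 532) with the replicate block, 1047 (391, 656) with the arrays numbered 1 as a block, 953 (428, 525) without those arrays and 170 (47, 123) with the Y-linked class as a block. Quantile normalization gave 129 higher genes and the limit to genes above background 122, with falls and totals within 1.5 times. At an unadjusted p under 0.05, limma gave 2694 (1112, 1582) and the Tukey test that the methods name 874 (266, 608). Leaving out 1 array gave 43 to 494 calls (10 to 199 higher, 30 to 295 lower); where a 2-week array was left out, the other was taken to vary like the rest. A macrophage covariate, chosen after seeing the data, gave 0 calls in each direction. Calls from 3 days to 4 weeks numbered 2477, 3759 with the replicate block and 3863 with the arrays numbered 1 as a block. The cause was not tested.

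Of 70 called genes named in the text, 36 lost the call with only the 5 arrays, 25 with the Y-linked class as a block, 8 with median centring, and 0 with either block of replicate numbers. Signs turned for genes that had not passed, Col3a1 (0.10 with the Y-linked class as a block and 0.55 with the macrophage covariate) and Postn (−0.44 to 0.02 when 1 array was left out), and with the macrophage covariate for its own members Lyz2 (0.40) and Csf1r (1.18). At levels near background a fold change is what the array shows, not a ratio of transcripts.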
